A study of Homo sapiens with 20 samples.

Results

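CDK5, a serine/threonine kinase, and CDK5R1, the gene of its activating subunit p35, were the 2 rows followed here of 59609 distinct gene symbols in the table, over all 20 libraries. CDK5R1 was chosen because it differed between the spleen-strengthening and blood-activating treatments in these data, and CDK5 was added as its partner. The differences of CDK5R1 that involve either of those treatments are therefore given as a description, with no test.

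The libraries came from SW1990, an established human pancreatic adenocarcinoma line, and per the series title from a mouse model. There were 4 treatments named after principles of traditional Chinese medicine (TCM), with 5 libraries each. Heat-clearing treatment also aims to remove dampness, spleen-strengthening to regulate the flow of qi, yin-nourishing to eliminate heat and blood-activating to remove stasis. No sample is labelled untreated, and the herbs, dose, duration and animal age are not given in the labels. The origin of a replicate (animal, tumour or culture) is not stated either, so p-values measure only the spread between these samples. How mouse reads were handled is likewise not given.

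CDK5 belongs to the cyclin-dependent kinase family but is not switched on by the classical cell-cycle cyclins. It becomes active when it binds p35 or the related protein p39, and calpain, a calcium-dependent protease, trims p35 to a longer-lived fragment that keeps the kinase active. The pair is best known from neurons, where it controls migration and the cytoskeleton. In pancreatic cancer cells it has been studied for its part in migration.

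Total counts were 81.7 to 135 M (mega) per library. The epithelial markers of the tumour line, such as keratins 8, 18 and 19 and EPCAM, were all present, 7 of 7 above 1 CPM on average, with a summed level of 1887 to 3058 CPM. CPM means TMM-normalised counts per M counts. Of 12 neuronal markers 2 averaged above 1 CPM, the tubulin gene TUBB3 at 1.65 to 45.9 CPM and MAP2 at 3.81 to 8.84 CPM. Among the others, STMN2, NEFM and ELAVL4 stood at 0 in 19, 17 and 12 of the 20 libraries. GAP43 stood at 0 in 10 libraries, and ELAVL3, RBFOX3 and NEFL in 9 each. SYT1, SYP and SNAP25 stood at 0 in 4, 2 and 0 libraries, with highest values of 0.612, 0.982 and 1.46 CPM. Of 9 pancreatic acinar markers, all averaged above 1 CPM, with a summed level that varied widely, from 0.793 to 223.7 CPM in heat-clearing, 0.315 to 45.6 CPM in spleen-strengthening, 0.568 to 781.2 CPM in yin-nourishing and 4.78 to 674.2 CPM in blood-activating libraries; their part in the results was not tested. Endothelial markers, 2 of 5 above 1 CPM, summed to 9.78 to 13.5 CPM in heat-clearing, 13.7 to 24.2 CPM in spleen-strengthening, 10.6 to 15.2 CPM in yin-nourishing and 7.84 to 19.8 CPM in blood-activating libraries. Fibroblast markers, 4 of 7 above 1 CPM, summed to 17.4 to 67.1 CPM over all libraries and blood-cell markers, 3 of 7, to 51.3 to 96.5 CPM, while 0 of 6 Schwann cell and 0 of 7 islet markers averaged above 1 CPM. The fibroblast sum was mostly COL1A1, at a mean of 28.95 CPM, and the blood-cell sum mostly CD68, at 51.7 CPM. LYZ and CD79A averaged 8.67 and 3.78 CPM, and CSF1R, PTPRC, CD3E and ITGAM 0.457, 0.126, 0.0672 and 0.0426 CPM. The small nuclear RNA RN7SK stood apart in 5 libraries, replicates 1 and 2 of heat-clearing and replicates 1, 8 and 9 of blood-activating. Its share was 5.25 to 7.38% there and 1.57 to 3.02% in the 15 others, and mitochondrially encoded mRNA made up 10.6 to 15.6% there and 17.1 to 23.2% in the 15 others. These 5 are called the RN7SK-high libraries, and the values of both members and of the named list genes are given with and without them.

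CDK5R1 (ENSG00000176749.8) lies on the plus strand of chromosome 17 at 32486619 to 32491256 (hg38, GENCODE release 29), and no annotated gene overlaps it. CDK5 (ENSG00000164885.12) lies on the minus strand of chromosome 7 at 151053812 to 151058530. It shares 1321 bases with SLC4A2, an anion exchanger gene on the other strand, and 331 of these bases, 11.3% of the exon sequence of CDK5, are exonic in both genes. The strand setting of the counting is not given in the sources used here, so reads from the shared stretch cannot be told apart.

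The start sites of both genes were read from RefSeq windows of 300 bases (build GRCh38.p14, 250 bases before the RefSeq start and 50 after). They are shown for the longest run of letters that the windows of kinase and activator share, each on its own strand. This run of 12 letters holds a GC box, the site of SP1-type factors. The capitals mark the shared run, and each line is read 5′ to 3′ on the strand of its gene.
CDK5R1: ggccgagcggGGGGCGGGGCTGcggtgcct
CDK5: gcgggcagacGGGGCGGGGCTGgaggctca
The CDK5R1 stretch is chr17:32486949-32486978 on the plus strand and the CDK5 stretch is chr7:151057924-151057953 on the minus strand, with the run starting 34 and 46 bases before the RefSeq start. In GENCODE a transcript of each gene starts further upstream than this. The run GGGGCGGGGCTG occurred on either strand in 0.957% of 35116 such windows, and the GC box GGGCGG, which lies inside it, in 44.95%. The run was found by comparing these 2 windows, so its presence in both is no finding. The EGR1 site GCGTGGGCG, searched because the transcription factor EGR1 raises CDK5R1 in cultured neuronal cells, occurred in neither window and in 0.795% of all. TATAAA and CCAAT occurred in neither window, against 11.5% and 34.6% of all.

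CDK5R1 was highest under spleen-strengthening and lowest under blood-activating. The summed endothelial markers were also highest under spleen-strengthening, wholly above heat-clearing but overlapping yin-nourishing and blood-activating. That sum is mostly the 1 gene PECAM1, at a mean of 10.4 CPM. VWF averaged 2.05 CPM, and TEK, CDH5 and KDR 0.711, 0.546 and 0.0417 CPM. The part of these markers in the CDK5R1 order was not tested. In heat-clearing replicates 1, 2, 3, 7 and 9 CDK5R1 stood at 20.2, 14.1, 23.9, 18.1 and 14.3 CPM. In spleen-strengthening replicates 2, 5, 6, 7 and 8 CDK5R1 stood at 32.4, 27.3, 27.4, 23.1 and 30.9 CPM. Replicate 7 was the lowest of its group and the only spleen-strengthening library inside the range of another group. In yin-nourishing replicates 1, 4, 5, 7 and 10 the levels were 22.0, 25.9, 23.0, 23.6 and 23.6 CPM. In blood-activating replicates 1, 4, 6, 8 and 9 they were 12.6, 18.9, 17.1, 14.7 and 16.5 CPM, and no blood-activating library reached the lowest yin-nourishing one. The lowest count of CDK5R1 was 1182 and the highest 3457, for which counting error alone is 2.91% and 1.70%, less than the spread within each group.

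**Figure D1:**
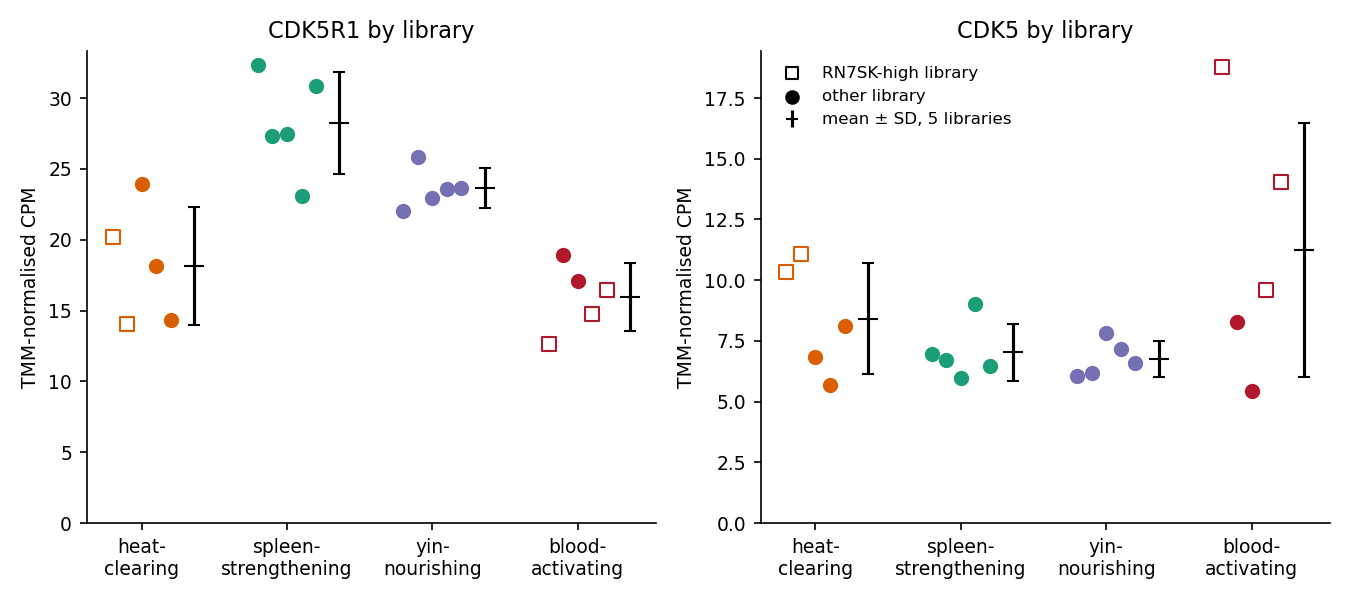
TMM-normalised CPM of CDK5R1 (left) and CDK5 (right) in each library by treatment, with RN7SK-high libraries as open squares, other libraries as filled circles and the mean ± SD of 5 libraries beside each group. All 5 spleen-strengthening libraries lie above all 5 blood-activating libraries for CDK5R1, and the highest CDK5 values are open squares.

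The order of the CDK5R1 means was 28.2 ± 3.59 CPM for spleen-strengthening, 23.6 ± 1.41 CPM for yin-nourishing, 18.1 ± 4.15 CPM for heat-clearing and 16.0 ± 2.39 CPM for blood-activating (SD, n = 5 each). Every pair of neighbours in this order overlapped. Spleen-strengthening and yin-nourishing libraries each lay wholly above the blood-activating ones. CDK5R1 was 1.77-fold higher under spleen-strengthening than under blood-activating, a log2 fold change of 0.82 (SE 0.15), and 1.48-fold higher under yin-nourishing than under blood-activating, 0.57 (SE 0.15). Of all 24790 tested rows, 1.94% had spleen-strengthening wholly above blood-activating and 2.26% had yin-nourishing wholly above blood-activating; since the gene was chosen on the first of these contrasts, nothing is read from this. The log2 fold change was -0.64 (SE 0.15) for heat-clearing minus spleen-strengthening, where 4 of 5 heat-clearing libraries lay below the lowest spleen-strengthening one. It was 0.26 (SE 0.15) for spleen-strengthening minus yin-nourishing and 0.18 (SE 0.15) for heat-clearing minus blood-activating.

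The pair that holds neither of the treatments used in the choice is heat-clearing and yin-nourishing. CDK5R1 averaged 18.1 CPM in heat-clearing and 23.6 CPM in yin-nourishing libraries, and 4 of 5 heat-clearing libraries lay below all 5 yin-nourishing ones. The log2 fold change of -0.38 (SE 0.15) did not pass in edgeR's quasi-likelihood test after Benjamini-Hochberg adjustment over all rows (unadjusted p = 0.0168, adjusted p = 0.456). In this comparison 0.0% of the 24790 tested rows passed and 2547 had an unadjusted p under 0.05. The spread in this fit came from all 20 libraries, which include the treatments used in the choice. With the pair fitted alone the log2 fold change was -0.38 (SE 0.16, unadjusted p = 0.0293, adjusted p = 0.607, edgeR).

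Without the RN7SK-high libraries 5 of the 6 CDK5R1 differences were smaller, and all 6 kept their direction. Spleen-strengthening minus blood-activating was 0.66 (SE 0.18), with 2 blood-activating libraries left. Yin-nourishing minus blood-activating was 0.39 (SE 0.18), heat-clearing minus spleen-strengthening -0.59 (SE 0.15), heat-clearing minus yin-nourishing -0.33 (SE 0.15), and heat-clearing minus blood-activating 0.07 (SE 0.19). Within the blood-activating group the RN7SK-high libraries held 12.6 to 16.5 CPM of CDK5R1, against 17.1 to 18.9 CPM in the other 2, and within the heat-clearing group 14.1 to 20.2 CPM, against 14.3 to 23.9 CPM in the other 3, which overlap.

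**Figure D2:**
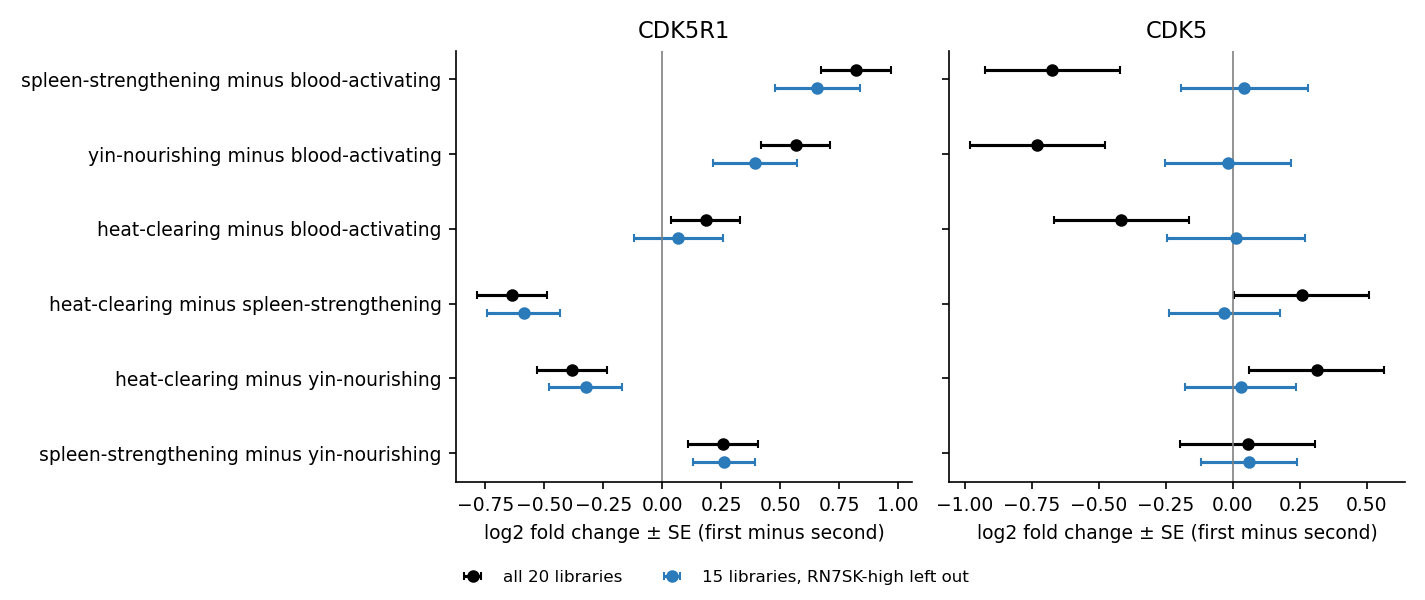
Log2 fold changes ± SE of CDK5R1 (left) and CDK5 (right) for the 6 pairs of treatments, first treatment minus second, with all 20 libraries (black) and with the 5 RN7SK-high libraries left out (blue). The CDK5R1 points stay on their side of 0, while the CDK5 points move to between -0.03 and 0.06.

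CDK5, the kinase itself, had its highest levels under blood-activating, where its activator was lowest. It stood at 10.3, 11.1, 6.85, 5.68 and 8.13 CPM in heat-clearing replicates 1, 2, 3, 7 and 9, and at 6.98, 6.71, 5.99, 9.02 and 6.49 CPM in spleen-strengthening replicates 2, 5, 6, 7 and 8. In yin-nourishing replicates 1, 4, 5, 7 and 10 it stood at 6.08, 6.18, 7.84, 7.17 and 6.59 CPM. In blood-activating replicates 1, 4, 6, 8 and 9 it stood at 18.8, 8.27, 5.46, 9.62 and 14.0 CPM, so this group held both the lowest and the highest value of the series. The counts were 488 to 1760, with a counting error of 4.53% at the lowest and 2.38% at the highest.

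The CDK5 means were 11.2 ± 5.23 CPM for blood-activating, 8.41 ± 2.28 CPM for heat-clearing, 7.04 ± 1.17 CPM for spleen-strengthening and 6.77 ± 0.737 CPM for yin-nourishing (SD, n = 5 each), and all 6 pairs of groups overlapped. Across the 4 treatments jointly CDK5 had an unadjusted p = 0.0283 and an adjusted p = 0.264 (edgeR), where 0.0% of all rows passed by edgeR, 5.08% by DESeq2 and 13.4% by limma voom. By edgeR it passed in 0 of 6 pairs, with 2 pairs at an unadjusted p under 0.05; DESeq2 called 0 pairs and limma voom 2. The log2 fold change was -0.67 (SE 0.25, adjusted p = 0.134, edgeR) for spleen-strengthening minus blood-activating and -0.73 (SE 0.25, adjusted p = 0.15, edgeR) for yin-nourishing minus blood-activating. In both pairs 0.0% of all tested rows passed by edgeR, and limma voom, which called CDK5 in both, called 19.8% and 16.8% of all rows; DESeq2, which did not, called 7.8% and 4.26%. Heat-clearing minus blood-activating was -0.42 (SE 0.25), heat-clearing minus spleen-strengthening 0.26 (SE 0.25), heat-clearing minus yin-nourishing 0.31 (SE 0.25) and spleen-strengthening minus yin-nourishing 0.06 (SE 0.25), with adjusted p from 0.725 to 1 (edgeR). In these 4 pairs edgeR called 0.0% of all rows, except for heat-clearing minus spleen-strengthening with 0.00807%. DESeq2 called 0.0403%, 0.27%, 0.129% and 0.121% of all rows in them, and limma voom 0.0%, 0.0121%, 0.0% and 0.00403%.

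CDK5 was high where RN7SK was high. Within the heat-clearing group these held 10.3 and 11.1 CPM, against 5.68 to 8.13 CPM in the other 3 libraries, a ratio of 1.55. Within the blood-activating group they held 9.62 to 18.8 CPM, against 5.46 and 8.27 CPM in the other 2, a ratio of 2.06. CDK5 was thus higher without overlap within both treatments, as were 12.3% of all tested rows. With treatment in the model, the RN7SK-high libraries were 0.84 (SE 0.19) higher on the log2 scale for CDK5 and -0.22 (SE 0.14) for CDK5R1, at percentiles 84.9 and 35.8 of all tested rows, whose median was 0.01. The longest transcript has a GC content of 58.8% for CDK5 and 56.4% for CDK5R1, percentiles 85.0 and 78.3 of 23255 tested genes with a sequence.

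Without the RN7SK-high libraries the CDK5 means were 6.89 ± 1.23 CPM for heat-clearing (SD, n = 3), 7.04 ± 1.17 CPM for spleen-strengthening (n = 5), 6.77 ± 0.737 CPM for yin-nourishing (n = 5) and 6.86 ± 1.98 CPM for blood-activating (n = 2). All 6 log2 fold changes then lay between -0.03 and 0.06, among them 0.04 (SE 0.24) for spleen-strengthening minus blood-activating. With all 20 libraries and a term for high RN7SK, spleen-strengthening minus blood-activating was -0.09 (SE 0.22) and yin-nourishing minus blood-activating -0.15 (SE 0.21). That term rests on the heat-clearing and blood-activating groups, which hold both kinds of library, since no spleen-strengthening or yin-nourishing library is RN7SK-high. What sets these libraries apart was not tested.

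SLC4A2, which overlaps CDK5, also stood higher in the RN7SK-high libraries. It held 37.0 to 53.2 CPM in them, against 17.0 to 30.3 CPM in the other 15. Its log2 level had a Pearson r with that of CDK5 of 0.76 over the 20 libraries and 0.25 over those 15, given as a description. In spleen-strengthening minus blood-activating SLC4A2 stood at -0.64 (SE 0.23, adjusted p = 0.126, edgeR), where CDK5 stood at -0.67 (SE 0.25). The part of SLC4A2 reads in the CDK5 counts was not tested.

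The balance of activator to kinase spread more between libraries than either gene alone, with a 7.09-fold range over the 20 libraries, against 2.57-fold for CDK5R1 and 3.44-fold for CDK5. Without the RN7SK-high libraries these ranges were 2.70-fold, 2.26-fold and 1.65-fold. Since CDK5R1 was chosen on spleen-strengthening against blood-activating, the ratios by treatment are a description. Per kb of exon CDK5R1 averaged 4.97 CPM and CDK5 2.85 CPM over the 20 libraries. The activator mRNA was the more abundant of the pair except in 3 RN7SK-high libraries, heat-clearing replicate 2 and blood-activating replicates 1 and 9, and the blood-activating means per kb were 3.69 CPM for CDK5R1 and 3.82 CPM for CDK5. The ratio of CDK5R1 to CDK5 per length was 1.59 ± 0.651 for heat-clearing, 2.80 ± 0.618 for spleen-strengthening, 2.39 ± 0.315 for yin-nourishing and 1.19 ± 0.656 for blood-activating (SD, n = 5 each). It was lowest in blood-activating replicate 1, at 0.456, and highest in a spleen-strengthening library, at 3.23. The RN7SK-high libraries held 0.456 to 1.33 and the other 15 libraries 1.20 to 3.23, with a small overlap. Without them the means were 1.91 ± 0.628 for heat-clearing (n = 3), 2.80 ± 0.618 for spleen-strengthening, 2.39 ± 0.315 for yin-nourishing and 1.84 ± 0.403 for blood-activating (n = 2).

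**Figure D3:**
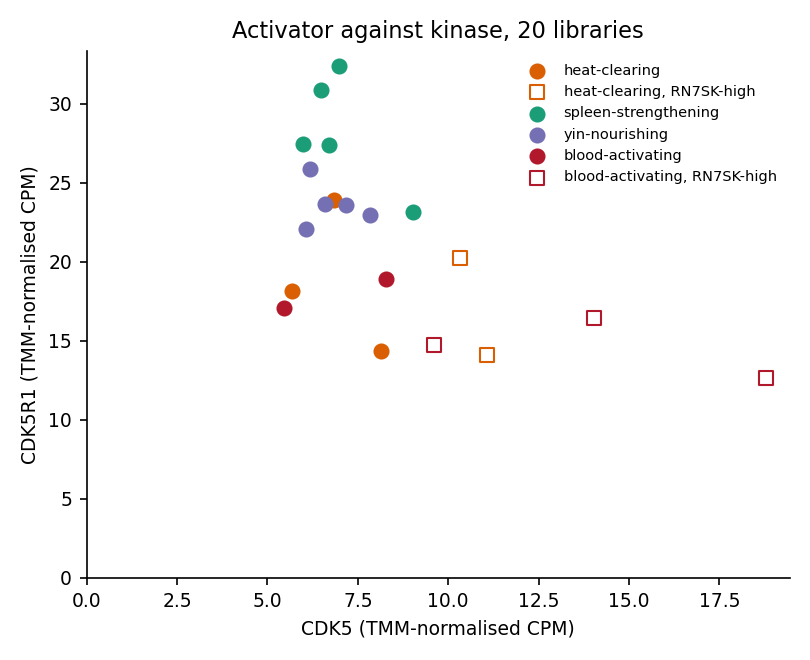
CDK5R1 against CDK5 in TMM-normalised CPM, 1 point per library, coloured by treatment, with RN7SK-high libraries as open squares. The 5 open squares lie to the right, at 9.62 to 18.8 CPM of CDK5, and the other 15 libraries spread along the CDK5R1 axis.

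Because the RN7SK-high libraries form a cluster of their own, the relation of both genes was taken from the other 15 libraries. There the levels did not go together detectably, with a Pearson r of -0.107 (permutation p = 0.703, two-sided, 100000 permutations, n = 15) and a Spearman rank correlation of -0.075 (permutation p = 0.793). Over the 3 relations computed, these had adjusted p = 0.703 and 0.793. The other 2 relations took all 20 libraries, which pools both clusters, so their r is not given. Both were negative. They also include the treatments that CDK5R1 was chosen on, so no p-value is given for them. Without the 2 libraries farthest from the CDK5 median, spleen-strengthening replicate 7 and blood-activating replicate 4, r was -0.0223. The 15 libraries were shuffled without regard to treatment, and they include the treatments that CDK5R1 was chosen on. With treatment means removed and shuffling within treatments, r was -0.301 (permutation p = 0.393), an alternative chosen after seeing the data.

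Among 21 cyclin-dependent kinases CDK5 ranked 14 by level per kb of exon. CDK6, a kinase of the G1 phase, led at 55.8 ± 12.2 CPM per kb (SD, n = 20), followed by the mitotic kinase CDK1 at 18.5 ± 2.54 CPM per kb and by CDK16, a relative of CDK5 that cyclin Y activates, at 14.8 ± 4.42 CPM per kb. CDK5 stood at 2.85 ± 1.11 CPM per kb, next to CDK13 at 3.68 ± 0.386 and CDK11B at 2.22 ± 0.379 CPM per kb, and its range overlapped both of theirs. CDK11B has a near-identical copy, CDK11A, so its reads may be split. CDK5R2, which encodes the other activator p39, was at 0.203 CPM per kb and 0 counts in its lowest library, against 4.97 CPM per kb for CDK5R1. CCNI, an atypical cyclin reported to activate CDK5 in podocytes and other cells, was at 111 ± 16.7 CPM per kb.

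**Figure D4:**
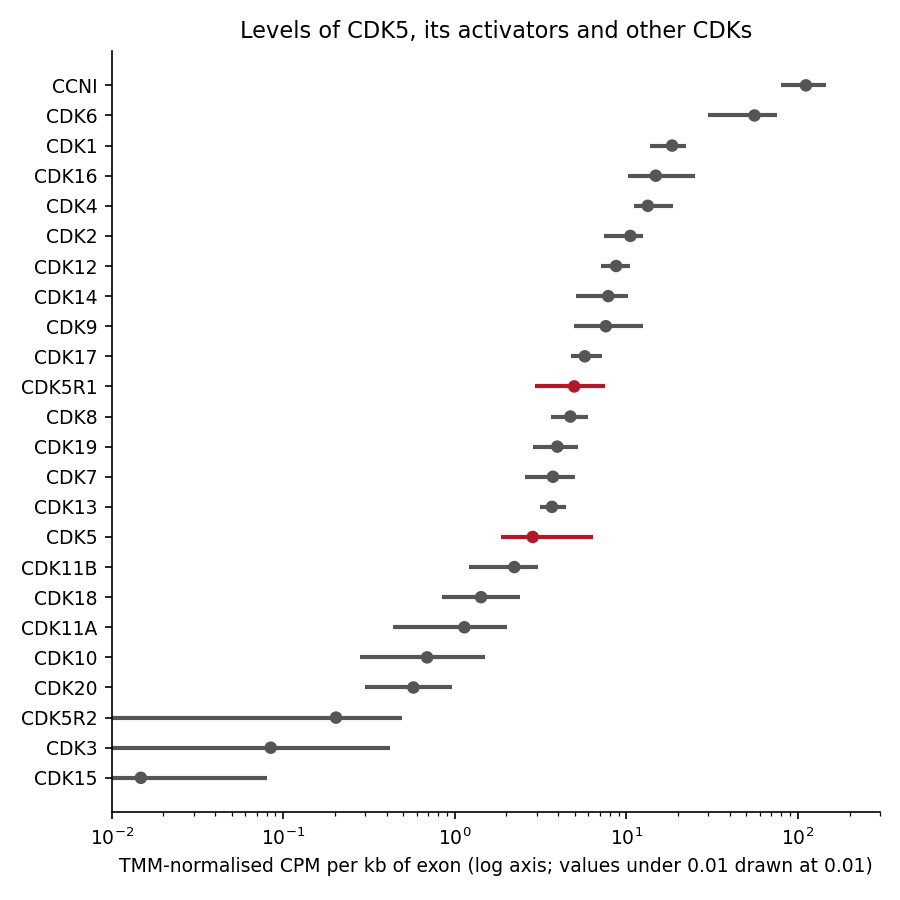
Level per kb of exon (TMM-normalised CPM per kb, log axis) of CDK5, CDK5R1, CDK5R2, CCNI and 20 other cyclin-dependent kinases over 20 libraries, with points at the mean and bars from the lowest to the highest library. CDK5R1 lies above CDK5, and CDK5R2 is far below both.

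Genes that work with CDK5 were followed in 5 lists, 95 genes in all, of which 93 were tested; DCX and AMPH, 2 neuronal substrates, fell under the filter. The lists were drawn up with results of these libraries known, so their directions are no independent evidence. In spleen-strengthening minus blood-activating edgeR called 0 of the 93, with 33 at an unadjusted p under 0.05 (35.5%, against 20.5% of all rows), while DESeq2 called 19 and limma voom 32. The share of all rows called was 0.0% by edgeR, 7.8% by DESeq2 and 19.8% by limma voom, and the median log2 fold change of all tested rows was -0.04. In yin-nourishing minus blood-activating edgeR called 0 of the 93, with 32 at an unadjusted p under 0.05 (34.4%, against 18.2% of all rows), DESeq2 10 and limma voom 29, where they called 4.26% and 16.8% of all rows. The share of members at an unadjusted p under 0.05 was 3.23% in heat-clearing minus blood-activating, against 1.86% of all rows, 19.4% in heat-clearing minus spleen-strengthening, against 11.5%, 14.0% in heat-clearing minus yin-nourishing, against 10.3%, and 3.23% in spleen-strengthening minus yin-nourishing, against 4.72%. In these 4 pairs each tool called at most 1 member in a pair.

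Of the 10 partners of CDK5, 5 were higher and 5 lower under spleen-strengthening than under blood-activating, with a median of -0.01. GSTP1, a glutathione transferase reported to inhibit CDK5, averaged 274.6 ± 48.4 CPM in spleen-strengthening and 405.8 ± 42.1 CPM in blood-activating libraries (log2 -0.56, SE 0.18, adjusted p = 0.0977, edgeR). LMTK2, a membrane kinase that binds p35, averaged 49.8 ± 6.37 CPM against 63.7 ± 8.24 CPM (-0.35, SE 0.11, adjusted p = 0.099). CDK5RAP3 and CDK5RAP2, named for binding the activator, were at 0.52 (SE 0.27) and 0.21 (SE 0.11). As a log2 ratio of group means without the RN7SK-high libraries, which leaves 2 blood-activating libraries, GSTP1 stood at -0.54 and LMTK2 at -0.21, while CDK5RAP3 and CDK5RAP2 were at 0.0054 and 0.088.

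The list of the calpain system was not limited to the calpains known to trim p35, and it also holds their inhibitor. In it 3 of 8 members were higher and 5 lower (median -0.22). CAPN15, an atypical calpain, averaged 19.1 ± 3.56 CPM in spleen-strengthening and 38.6 ± 11.1 CPM in blood-activating libraries (-1.02, SE 0.25, adjusted p = 0.0835, edgeR), and CAPN7 averaged 60.5 ± 9.02 CPM against 43.4 ± 5.36 CPM (0.48, SE 0.15). CAPNS1, the small subunit of the classical calpains, was at -0.39 (SE 0.17) and CAST, their inhibitor calpastatin, at -0.21 (SE 0.12). Without the RN7SK-high libraries the ratio of means of CAPNS1 turned to 0.23 on the log2 scale, and CAPN15, CAPN7 and CAST stood at -0.49, 0.32 and -0.25.

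Of 37 tested substrates 17 were higher and 20 lower (median -0.02). DPYSL3, a microtubule-binding protein, averaged 1.77 ± 0.294 CPM in spleen-strengthening and 3.73 ± 1.56 CPM in blood-activating libraries, and NES, the intermediate filament nestin, 1.43 ± 0.513 CPM against 3.46 ± 2.20 CPM. In the other direction APEX1, a DNA repair endonuclease, averaged 132.3 ± 11.3 CPM against 95.6 ± 19.9 CPM, and RB1, the retinoblastoma protein, 255.7 ± 16.2 CPM against 189.5 ± 38.5 CPM. Their adjusted p were 0.0933 to 0.0945 (edgeR), with log2 fold changes of -1.07 (DPYSL3), -1.27 (NES), 0.47 (APEX1) and 0.43 (RB1). Without the RN7SK-high libraries the ratios of means were smaller, at -0.80, -0.51, 0.18 and 0.15 on the log2 scale in the same order.

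Among 16 genes of the EGR and ERK axis 5 were higher and 11 lower (median -0.22). EGR1 averaged 23.5 ± 6.02 CPM in spleen-strengthening and 37.8 ± 13.2 CPM in blood-activating libraries (-0.69, SE 0.21, adjusted p = 0.0938, edgeR). The ERK phosphatase genes differed among themselves, with DUSP4 at 0.55 (SE 0.13) and DUSP5 at -0.87 (SE 0.21). Without the RN7SK-high libraries the ratio of means of EGR1 was -0.31 on the log2 scale, that of DUSP4 0.37 and that of DUSP5 -0.55, while NAB2 stood at -0.81, against -0.84 with all libraries. NAB2, a corepressor of EGR factors, was the only list member past the threshold in any pair by edgeR. It averaged 9.51 ± 0.995 CPM in heat-clearing and 5.02 ± 0.626 CPM in spleen-strengthening libraries (0.92, SE 0.15, adjusted p = 0.0495, edgeR). In this pair 0.00807% of all rows passed. The adjusted p of NAB2 lay just under the threshold, and the call ended under most alternatives. Without the RN7SK-high libraries the heat-clearing mean of NAB2 was 9.08 ± 1.13 CPM (n = 3), and the spleen-strengthening mean was the same as before.

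Of 22 other cyclin-dependent kinases and cyclin Y genes 9 were higher and 13 lower (median -0.07). CDK16 averaged 77.8 ± 6.75 CPM in spleen-strengthening and 125.0 ± 35.6 CPM in blood-activating libraries (-0.69, SE 0.18, adjusted p = 0.0889, edgeR). CDK9, the kinase of P-TEFb that RN7SK holds back, averaged 17.6 ± 1.86 CPM against 29.1 ± 8.82 CPM (-0.73, SE 0.21), and CDK18 7.69 ± 1.45 CPM against 12.4 ± 2.40 CPM (-0.69, SE 0.22). CDK6 averaged 802.7 ± 75.0 CPM against 555.9 ± 112 CPM (0.53, SE 0.17). As a ratio of group means without the RN7SK-high libraries these 4 stood at -0.17, -0.17, -0.52 and 0.25 on the log2 scale.

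**Figure D5:**
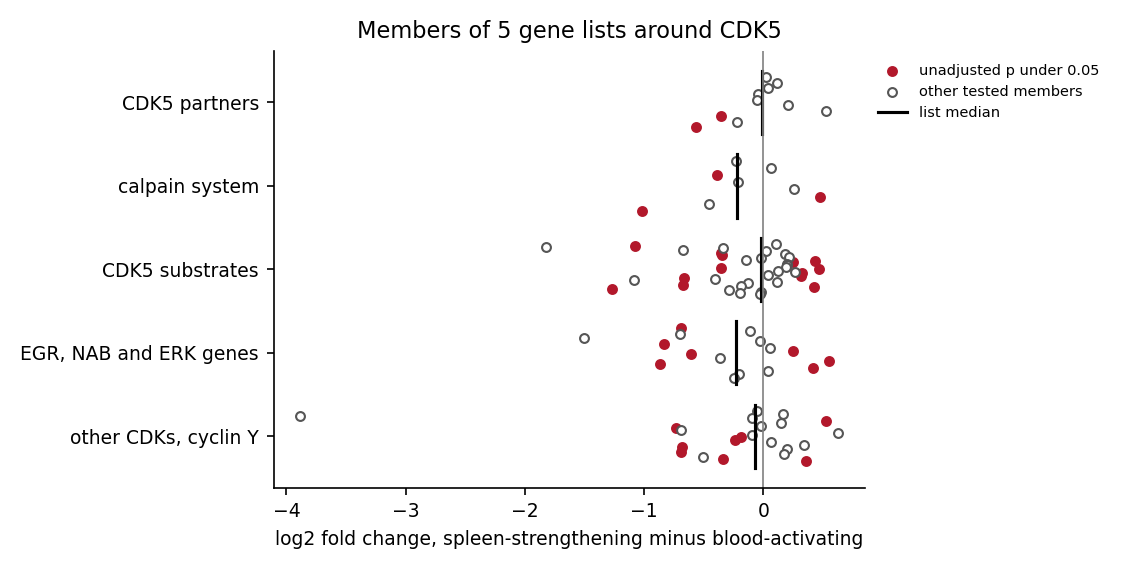
Log2 fold changes, spleen-strengthening minus blood-activating, of the 93 tested members of 5 gene lists around CDK5, with members at an unadjusted p under 0.05 filled and list medians as black lines. The medians lie between -0.22 and -0.01, and each list holds members on both sides of 0.

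The genes most like CDK5R1 over the 20 libraries, by Pearson r of log2 CPM among genes with a mean log2 CPM of 0 or more, were FBXO4 at 0.89, an F-box protein of ubiquitin ligases, NBPF9 at 0.88, one of a family of near-identical copies whose reads may be split, SNTB2 at 0.86, a syntrophin adaptor, AL360270.1 at 0.86 and PTBP3 at 0.86, an RNA-binding protein. In the 15 libraries without high RN7SK, which are part of the 20 used to pick them, their r was 0.76 to 0.83. These r values include the treatment differences that CDK5R1 was chosen on, so they are a description. The most opposite were the hyaluronidase HYAL1 at -0.87, ARHGEF19 at -0.86, NHP2 at -0.86, a protein of box H/ACA ribonucleoproteins, CD320 at -0.84, the transcobalamin receptor, and the transcription factor KLF2 at -0.84, and in the 15 libraries they lay at -0.83 to -0.70.

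For CDK5 the r of the genes picked in the same way fell further without the RN7SK-high libraries. Most alike were CIAO1 at 0.92, a factor of iron-sulphur cluster assembly, the protease inhibitor CST3 at 0.91, the calcium-binding CAPS at 0.91, the quinone reductase NQO1 at 0.90 and the mitotic ubiquitin-conjugating enzyme UBE2C at 0.89. In the 15 other libraries their r was 0.34 to 0.58. Most opposite were KIAA0232 at -0.95 and ZDBF2, ZMYM2, MAP3K4 and TMEM165 at -0.91 each, which lay at -0.68 to -0.41 in the 15. When the 5 most alike were chosen from the 15 libraries, 0 of the 5 were shared for CDK5 and 1 of 5 for CDK5R1. With treatment means removed over the 20 libraries, 4 of 5 were shared for CDK5 and 1 of 5 for CDK5R1.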

How the data were processed

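RNA was extracted with TRIzol, depleted of ribosomal RNA and made into directional libraries, per the labels' protocols. The submitters' processing notes name HISAT2, StringTie and hg38, with no versions. The deposited table holds whole-number counts per gene, not normalised by the authors. The sources used here do not state the gene annotation or strand setting. All 20 columns matched sample titles, and replicate numbers are those of the titles. The lowest chi-square per degree of freedom between replicates of a group was 59.9 over 40 pairs, so no replicate repeated another of its group; pairs across groups were not compared.

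TMM normalisation and testing used edgeR 4.0.16 under R 4.3.3 (robust quasi-likelihood F-tests, treatment as the only term, all 20 libraries in 1 fit, filter with a minimum count of 10, which left 24790 of 60656 rows). Benjamini-Hochberg adjustment ran over all tested rows of a comparison, with a threshold of 0.05. Log2 CPM had a prior count of 2. Levels per kb used the merged exon length in GENCODE release 29. RN7SK-high libraries are those above the widest gap in the sorted RN7SK shares. Alternatives were RLE and upper-quartile scaling, no filter, a strict filter (1 CPM in 5 libraries), DESeq2 1.42.0, limma 3.58.1 (voom with quality weights), the letter in the title as a covariate, the replicate number as a block, each pair alone, a term for or removal of the RN7SK-high libraries, and leaving out each library. The edgeR script was tested on simulated data.

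The members, lists and tests were chosen with earlier results of these data known. Named list genes are those past the threshold or otherwise the 4 of each list with the smallest p in spleen-strengthening minus blood-activating. Named like genes are the 5 highest and 5 lowest by r. SLC4A2, CDK5R2, CCNI and the kinases given by level were named for overlap, role or rank.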

Additional observations from a re-analysis of the deposited data

How the results depend on the processing

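The direction of all 6 CDK5R1 differences held under every alternative run; without the RN7SK-high libraries yin-nourishing minus blood-activating moved to 0.39 from 0.57 with all libraries. Leaving out 1 library at a time, CDK5R1 ranged from 0.74 to 0.87 for spleen-strengthening minus blood-activating, 0.48 to 0.62 for yin-nourishing minus blood-activating, 0.06 to 0.26 for heat-clearing minus blood-activating, -0.76 to -0.55 for heat-clearing minus spleen-strengthening, -0.50 to -0.30 for heat-clearing minus yin-nourishing (adjusted p = 0.148 to 0.896, edgeR) and 0.20 to 0.32 for spleen-strengthening minus yin-nourishing.

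CDK5 depended on the RN7SK-high libraries: without them spleen-strengthening minus blood-activating turned to 0.043, heat-clearing minus blood-activating to 0.011 and heat-clearing minus spleen-strengthening to -0.032, and with a term for them heat-clearing minus spleen-strengthening stood at -0.11 and heat-clearing minus yin-nourishing at -0.054. Limma voom passed CDK5 for spleen-strengthening minus blood-activating (-0.73, adjusted p = 0.0338) and yin-nourishing minus blood-activating (-0.81, adjusted p = 0.0227). With any 1 library left out, CDK5 ranged from -0.85 to -0.42 for spleen-strengthening minus blood-activating, -0.90 to -0.47 for yin-nourishing minus blood-activating, -0.59 to -0.15 for heat-clearing minus blood-activating, 0.15 to 0.39 for heat-clearing minus spleen-strengthening, 0.20 to 0.44 for heat-clearing minus yin-nourishing and -0.054 to 0.11 for spleen-strengthening minus yin-nourishing, which turned sign without spleen-strengthening replicate 7. The adjusted p among the 4 treatments was 0.11 to 0.626 in these fits (edgeR).

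With the replicate number as a block CDK5 stood at -0.057 for heat-clearing minus spleen-strengthening, and no member's call changed. Same-numbered libraries did not deviate together: over 12 such pairs the correlation of deviations was -0.05 to 0.17, 1 pair was above 0.1, and 2 of 20 libraries correlated best with their own number.

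Over the 6 pairs edgeR called 1 list member. This was 0 with RLE or upper-quartile scaling, no filter, the title letter, the replicate block, each pair alone, without the RN7SK-high libraries or with a term for them, 31 by DESeq2 and 62 by limma voom, and 0 to 23 leaving out 1 library, with 23 without blood-activating replicate 4 and 6 without heat-clearing replicate 3. All rows called ranged from 0 to 2002 for spleen-strengthening minus blood-activating, 0 to 361 for yin-nourishing minus blood-activating, 0 to 2 for heat-clearing minus spleen-strengthening and 0 to 378 among the 4 treatments in the fits without 1 library. The 2002 and 361 rows, of 25619 tested, came without blood-activating replicate 4. Without heat-clearing replicate 3, 311 of 25660 rows were called for spleen-strengthening minus blood-activating. In these 2 pairs DESeq2 called 7.8% and 4.26% of all rows, and limma voom 19.8% and 16.8%. The correlation of CDK5R1 with CDK5 ranged from -0.31 to 0.12 leaving out 1 of the 15 libraries. With treatment means removed, an alternative chosen after seeing the data, it was -0.30. The cause of these changes was not tested.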

Other observations

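The genes next to CDK5R1 and CDK5 on their chromosomes were followed too, with r to the member over the 15 libraries without high RN7SK given as a description. PSMD11, a proteasome subunit 3301 bases from CDK5R1, had r = -0.33, and MYO1D, an unconventional myosin 1266 bases away on its other side, r = 0.14. In spleen-strengthening minus blood-activating they stood at 0.14 (SE 0.12) and -0.32 (SE 0.17) on the log2 scale. Around CDK5, the transporter ABCB8 had r = 0.20, FASTK r = 0.04 and TMUB1 r = -0.25, and ATG9B, an autophagy gene, had r = -0.48. ATG9B was at -1.29 (SE 0.37, adjusted p = 0.0933, edgeR), and ABCB8, FASTK and TMUB1 lay between -0.34 and -0.25. The remaining neighbours, ASIC3, AC010973.2, AC005899.8, AC005899.7, AC079336.5 and AC079336.7, averaged 0.0889 to 0.359 CPM. No neighbour passed in this pair (edgeR, 0.0% of all rows).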
